A study of Populus x canadensis with 4 samples.

Results

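Leaf microRNAs of a hybrid poplar were compared between 8 mM and 4 mM para-hydroxybenzoic acid (pHBA), a phenolic acid known from soils of replanted poplar stands. The comparison covers the highest step in a series of 0, 2, 4 and 8 mM and asks how leaf microRNA levels differ between its 2 doses. All plants were rooted cuttings of Populus × euramericana 'Neva', grown in water culture for 90 days and then kept for 3 days in the pHBA solution. Per the labels the 2 groups used here differ only in dose, and both were treated. Leaf RNA of equally treated plants had been pooled in equal parts, so each dose is 1 library and no difference has a replicate check. No p-value was computed, since nothing here measures how plants differ among themselves.

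The members are distinct microRNA sequences with a mean normalized read count of at least 10 over the 4 libraries. Of 529 sequences in the table, 350 met that rule, and they came from 84 of 120 named families and a set of predicted candidates. They held 99.99% of the assigned reads at both doses. The 4 mM library had 6369127 assigned reads and the 8 mM library 5310499. All levels below are normalized read counts from the authors, on a linear scale with 1 factor per library, not divided by length. A ratio could be formed for 349 members, because ptc-MIR399e-p5 had 0 reads at both doses. A member could pass the rule through any of the 4 libraries, also through those not compared here. Family totals sum every sequence of a family, also those that did not meet the rule.

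MicroRNAs are short RNAs that an Argonaute protein carries to messenger RNAs with a matching site, which are then cut or held back from translation. Bases 2 to 8 are called the seed. Most plant microRNAs are cut from a hairpin by DICER-LIKE1 and have 21 or 22 bases, while small RNAs of 24 bases are typical of the DICER-LIKE3 pathway that guides DNA methylation. In many plants miR397, miR398 and miR408 are known to accumulate when copper is short, and they target copper proteins. The miR472, miR482 and miR1448 group targets messages of disease resistance receptors of the NBS-LRR class.

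Sequences are printed as the deposited table gives them, 5′ to 3′, in DNA letters, with the seed in capitals. The hairpins' genome positions were not used here. The first set shows the copper and laccase members, because the forms of miR398 share 1 seed while the arms of miR1444 do not.
ptc-miR397a: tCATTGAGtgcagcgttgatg
ptc-MIR397a-p3: cCAGCGCTgcattcaatcatg
ptc-miR398b: tGTGTTCTcaggtcgcccctg
nta-miR398_R+2: tGTGTTCTcaggtcgcccctgtt
ptc-miR408-3p: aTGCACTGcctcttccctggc
ptc-miR1444a_R+1: tCCACATTcggtcaatgttcc
ptc-MIR1444c-p3_1ss3CT: cATATTCGgtcaacgttcgag
ptc-MIR1444c-p5: cGAATATTgatcgaatatgta

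The second set shows members of 24 bases that were lower at 8 mM, to let shared stretches be seen between them.
ptc-MIR481b-p3: cTTAAGCTattgggttgagatggt
ptc-MIR481b-p5_1ss4CT: aAGTTATTgggttgagatggttct
ptc-MIR481c-p5_1ss23AG: cTTAAGCTtttgggttgagatggt
ptc-MIR481d-p3_1ss9AG: gTGGGCCTgtgcaagtttcaagcc
ptc-MIR481d-p5: tTCTTTGAcatggtatcagagcct
ptc-MIR7836-p3: aACCACACctcccacccaaacacc
ptc-MIR6446-p3: tATGCTGCttgctgggtcctgatg
PC-5p-92044_47: tTTGTCTCcactacttaacaatct
PC-3p-144023_24: tATGATCTtctttggtgttgttgg
PC-3p-50815_113: tTCTTTGGtgttgttggatttgtc
PC-5p-21240_332: aATCCAACaacaccaagaaaggtc

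The third set shows abundant microRNAs, with pairs whose members differ by a shift, by bases or by both, and took different values.
ptc-miR472a: tTTTCCCTactccacccatccc
ptc-miR472b: tTTTCCCAactccacccatccc
ptc-miR1448_L+1R+1: tCTTTCCAacgcctcccatacc
ptc-miR166a: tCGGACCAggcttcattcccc
ptc-miR166n_L+2R-2: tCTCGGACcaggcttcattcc
ptc-miR156a: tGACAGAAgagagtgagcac
ptc-miR156g: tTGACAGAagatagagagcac
ptc-miR168a-5p: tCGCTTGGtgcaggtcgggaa

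The last set shows members from the less abundant hairpin arm with 0 reads at one dose and 18 or more at the other.
ptc-MIR399b-p5: gGGCAAGCttccattggcatg
ptc-MIR319c-p5: aGCTGCCGactcattcattca
ptc-MIR164c-p3: cACGTGCTccccttctccaac

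The leaf microRNA profile at 8 mM lay close to that at 4 mM for most members, with a few families apart. On the log2(value + 1) scale the median ratio of 8 to 4 mM was −0.03, with a lower quartile of −0.41 and an upper quartile of 0.35. At least 2-fold higher at 8 mM were 29 of 349 members, which is 8.31%, and at least 2-fold lower were 26, which is 7.45%. These calls were made on the log2(value + 1) scale, so 3 scarce members with a plain ratio just past 2, ptc-MIR6462e-p5, ptc-MIR395a-p5 and mtr-miR156e_1ss17AG, count as between. The other 294 lay between, 234 members staying within 1.5-fold. Folds printed for single sequences and families are plain ratios with exact 95% intervals, which cover counting error only, since PCR reads without molecular identifiers are not independent molecules. That interval lay wholly on one side of 1 for 24 of the 29 and 25 of the 26. With the higher of the compared values set to the lower one, 5 of the 29 and 4 of the 26 would not have reached the mean of 10. These had to differ once they passed, so their differences are no result. On the higher side they are bra-MIR824-p5_2ss5GT18TC, cme-MIR393a-p5_2ss11TC17TC, htu-miR530_R+3, ptc-MIR399b-p5 and ptc-miR6471. On the lower side they are PC-3p-144023_24, gma-miR6300_R+1_1, ptc-MIR164c-p3 and ptc-MIR7836-p3.

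**Figure D1:**
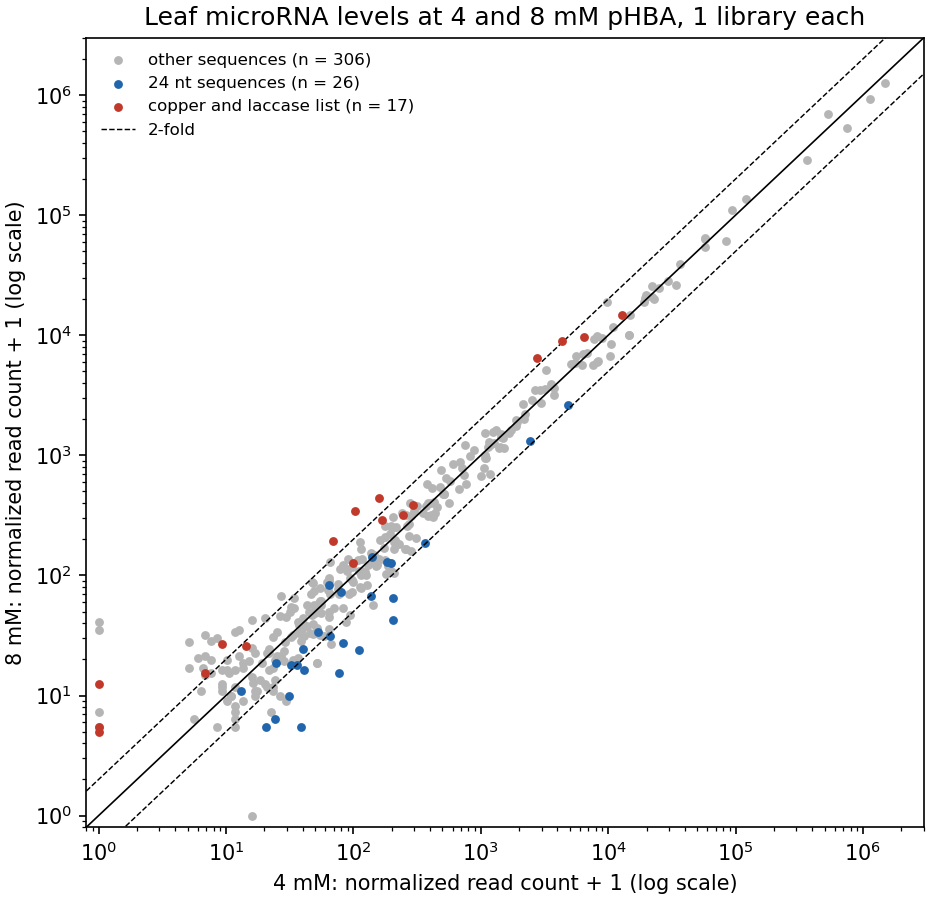
Each point is 1 of the 349 sequences, with its normalized read count plus 1 at 4 mM on the horizontal axis and at 8 mM on the vertical axis, both on a log scale, and dashed lines at 2-fold. The 17 copper and laccase sequences lie above the diagonal and 24 of the 26 sequences of 24 bases below it, and most points past the dashed lines lie at low levels.

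Which members count as higher or lower depends on how the libraries are scaled. With libraries scaled to equal totals every log2 ratio shifts by 0.16, and 39 members were higher and 18 lower. With the totals taken without miR472, miR482 and miR1448 the shift is −0.19, and 22 were higher and 38 lower. Ratios between 0.892 and 1.14 change side of 1 under one of these scalings, and such values are named below as depending on the scaling. List medians smaller in size than these shifts likewise change side of 0. Scarce members moved most: of 73 with under 50 reads over the pair of libraries, 19 were higher and 10 lower. Of 44 with at least 10000 reads, only 2 passed 2-fold, ptc-miR398b and ptc-MIR1444c-p3_1ss3CT.

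Copper and laccase microRNAs were higher at 8 mM. All 17 members lay on the higher side under the deposited scaling, 10 of them at least 2-fold, and only ptc-miR1444a_R+1 crossed to the lower side under another scaling. The 10 are 58.8% of the list, beside 8.31% over all members. The median log2 ratio was 1.16, beside −0.03 over all members. Together they took 0.520% of reads at 4 mM and 0.886% at 8 mM. The interval lay above 1 for 12 of the 17 and for 7 of the 10, the others being ptc-miR397b_L-1, ptc-MIR398c-p5 and aly-miR397a-5p_R+1_1ss21GT, with at most 16 reads at 8 mM. Counts of 2-fold members under the other scalings were 8 to 11. As the libraries are whole leaves, more microRNA per cell and a different mix of cells cannot be told apart, here and below.

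miR397, which targets laccases, copper enzymes that act in lignin formation, totalled 176 normalized read counts at 4 mM and 496 at 8 mM, 2.82-fold higher (2.40 to 3.32). ptc-miR397a made up most of it, at 156.6 and 440.8. Its other arm, ptc-MIR397a-p3, went from 0 reads to 13, 4.64-fold higher with 3 counts put in place of the 0. The exact interval starts at 3.26. Both arms of this hairpin were thus higher at 8 mM. The short form ptc-miR397b_L-1 had 0 and 4.5 reads, which counting error does not set apart, its interval starting at 0.706.

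miR398, which targets copper/zinc superoxide dismutases, went from 4564 normalized read counts to 9461, 2.07-fold higher (2.01 to 2.14). ptc-miR398b held nearly all of it, at 4321 and 8949. The longer form nta-miR398_R+2, which has the same first bases, stood at 8.33 and 25.8, 3.10-fold higher (1.47 to 7.14). stu-miR398a-3p_R+1_1ss2AG stood at 68.3 and 193, and ptc-miR398a_1ss15AG at 166.6 and 288.2. All forms with the seed GTGTTCT lay on the higher side, with log2 ratios of 0.79 to 1.53. Near-identical forms cannot be separated by counting, so these 4 are not independent. ptc-MIR398c-p5 had 0 and 5 reads, its interval starting at 0.981.

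miR408, which targets plantacyanin and laccase messages, was 1.498-fold higher at 8 mM (1.46 to 1.54), at 6789 and 10168. Its main form ptc-miR408-3p stood at 6448 and 9728. miR1444 is a Populus family that targets polyphenol oxidases, copper enzymes that oxidize phenols. Its total was 1.36-fold higher (1.33 to 1.38), at 16070 and 21791, and its members differed. ptc-miR1444a_R+1, the most abundant, stood at 12918 and 14626, 1.13-fold higher and changing side with the scaling. ptc-MIR1444c-p3_1ss3CT stood at 2757 and 6436, 2.33-fold higher (2.24 to 2.43). ptc-MIR1444c-p5 stood at 102 and 345, 3.37-fold higher (2.74 to 4.16). Both sequences named for MIR1444c therefore had higher ratios than ptc-miR1444a_R+1, with intervals that do not overlap its interval of 1.11 to 1.16.

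**Figure D2:**
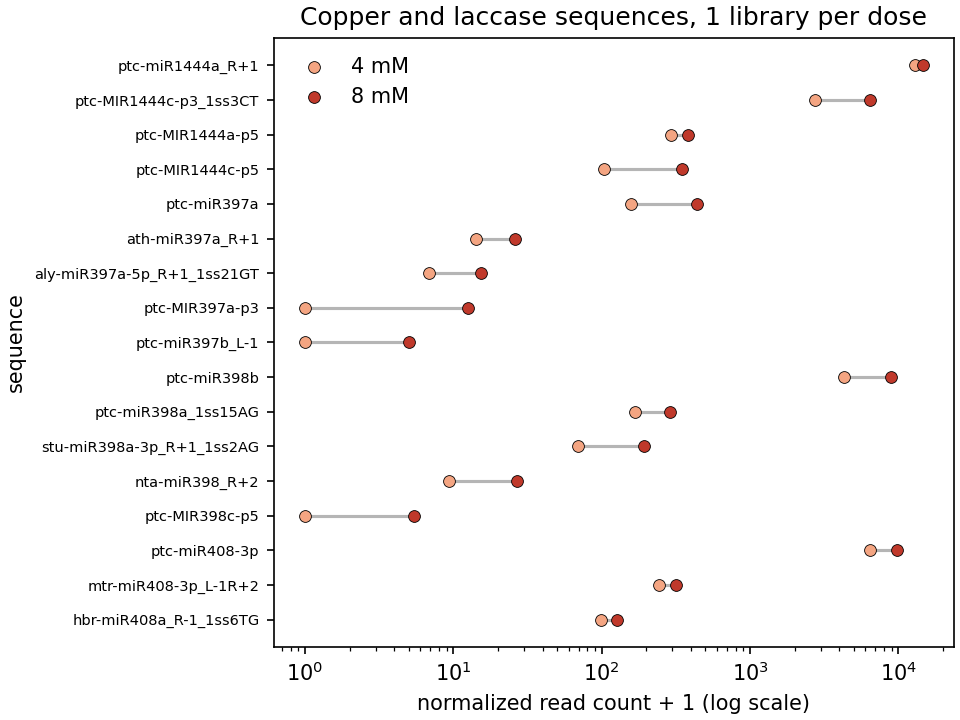
Normalized read count plus 1 at 4 and 8 mM, on a log axis, for each of the 17 copper and laccase sequences, with a line joining both doses. The 8 mM point lies to the right of the 4 mM point in every row, and 3 sequences have 0 reads at 4 mM.

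miR168, which targets ARGONAUTE1, the main carrier of plant microRNAs, was higher at 8 mM. Its total went from 11877 to 21170, 1.78-fold higher (1.75 to 1.82). The mature ptc-miR168a-5p stood at 9830 and 18996, 1.93-fold higher (1.89 to 1.98), while the other arm ptc-miR168a-3p stood at 1884 and 1986. The higher level was thus a feature of the mature arm, with intervals for the arms that do not overlap. miR162, which targets DICER-LIKE1, stood at 25560 and 25193, a ratio that depends on the scaling. miR403, which targets ARGONAUTE2, was 1.08-fold higher, a value that depends on the scaling. Of the 15 members of this list 1 was at least 2-fold higher and 0 lower, with a median log2 ratio of 0.00. That is 6.67% and 0%, beside 8.31% and 7.45% over all members. The higher member was ptc-MIR403b-p5, with 0 and 7 reads, 2.50-fold higher with 3 counts put in place of the 0. Its exact interval starts at 1.54.

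Most sequences of 24 bases were lower at 8 mM, and how many passed 2-fold differed with their origin, as given below. Of 26 members of this length, 24 were lower, 13 of them at least 2-fold, and none was 2-fold higher. Of these 13, ptc-MIR7836-p3 and PC-3p-144023_24 passed the filter only because of their difference. The median log2 ratio of the 26 was −0.999, beside 0.01 for the 323 members of other lengths, of which 13 were at least 2-fold lower. Members of 24 bases thus made up 13 of the 26 sequences at least 2-fold lower, and 26 of all 349 members. Counts of 10 of them are fractions in the table. The class is scarce, at a median of 120.0 reads over the pair of libraries. Members of other lengths with 20 to 1000 reads held 11 lower of 213, with a median of −0.02. The share of reads was 0.180% at 4 mM and 0.108% at 8 mM. The summed level was 9523 at 4 mM and 5106 at 8 mM, and most of it came from the pair gma-miR6300_R+6_1 and gma-miR6300_R+6_2, each 1.84-fold lower. Under the other scalings 9 to 16 of the 26 were at least 2-fold lower.

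The miR481 family, named from Populus trichocarpa, held 5 of the 13. Its total, over all 12 sequences of the family, 6 of them past the filter, went from 966 to 343, 2.82-fold lower (2.51 to 3.17). ptc-MIR481c-p5_1ss23AG stood at 204 and 41.9, 4.88-fold lower (3.57 to 6.83). ptc-MIR481d-p5 stood at 202 and 63.7, 3.17-fold lower (2.40 to 4.15). Sequences named for the other arms were lower too, ptc-MIR481d-p3_1ss9AG standing at 109 and 22.7 and ptc-MIR481b-p5_1ss4CT at 82.0 and 26.3. ptc-MIR481b-p3 was the least changed of the 24-base forms, at 135 and 66.8. The 21-base ptc-MIR481c-p3_2ss19CT21TC, at 206 and 104, lay just short of 2-fold. The 24-base forms named here are printed in the second set above. There ptc-MIR481b-p3 and ptc-MIR481c-p5_1ss23AG share the seed TTAAGCT and a run of 15 bases. These 2 differ only at the base after the seed, although named for different arms, and are not independent.

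Shared letters tie several of the 24-base members to each other. In all, 9 of the 26 share a run of at least 15 bases with another member of that length, on either strand. PC-3p-144023_24 and PC-3p-50815_113 share 17 bases on the same strand. PC-5p-21240_332 holds 16 bases that are the reverse complement of PC-3p-50815_113. Such members may stem from overlapping stretches and are not independent observations. Of the 17 that share no such run, 8 were at least 2-fold lower.

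Other 24-base members at the lower end came from single families and candidates. ptc-MIR7836-p3 had 45 reads at 4 mM and 5 at 8 mM, 8.41-fold lower (3.35 to 27.1). It passed the filter only because of that difference, which is therefore no result. The candidate PC-5p-92044_47 stood at 76.6 and 14.3 normalized read counts, 5.37-fold lower (3.14 to 9.79). miR6446, whose 2 members both have 24 bases, totalled 94.9 and 39.2, 2.42-fold lower (1.70 to 3.51). ptc-MIR399g-p5, from a family known for phosphate homeostasis, stood at 23.3 and 5.35, 4.36-fold lower (1.77 to 12.9). Not every member of this length was lower, hpe-miR162a_R+3 standing at 63.3 and 82.9 and mdm-miR393a_L+2 at 138 and 141. The sides of the latter and of stu-MIR8005c-p5_1ss11AG, at 79.1 and 71.3, depend on the scaling.

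Length and origin overlap. In the Populus families list, 9 of 10 members of 24 bases were at least 2-fold lower, beside 0 of 42 of other lengths. Nearly all of the 42 come from families other than those of the 10. Within miR481, the 21-base ptc-MIR481c-p3_2ss19CT21TC was itself 1.98-fold lower. Among the predicted candidates, which are sequences without a listed name, 3 of 8 with 24 bases and 3 of 19 of other lengths were at least 2-fold lower. The 3 with 24 bases include PC-3p-144023_24, which passed the filter only because of its difference. Of the remaining 8 members of 24 bases only 1 was at least 2-fold lower, with a median log2 ratio of −0.51. The candidates' median log2 ratio was −0.58 over all 27, and 1 of them, PC-3p-71534_69, was at least 2-fold higher. Their shares, 3.70% higher and 22.2% lower, stand beside 8.31% and 7.45% over all members. Members of 20 bases lay on the other side, with 5 of 27 at least 2-fold higher, 0 lower and a median of 0.33. That is 18.5% and 0%, beside 8.31% and 7.45% over all members. The medians were 0.05 at 21 bases, −0.18 at 22 and −0.23 at 23, the first of which changes side of 0 under a scaling.

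**Figure D3:**
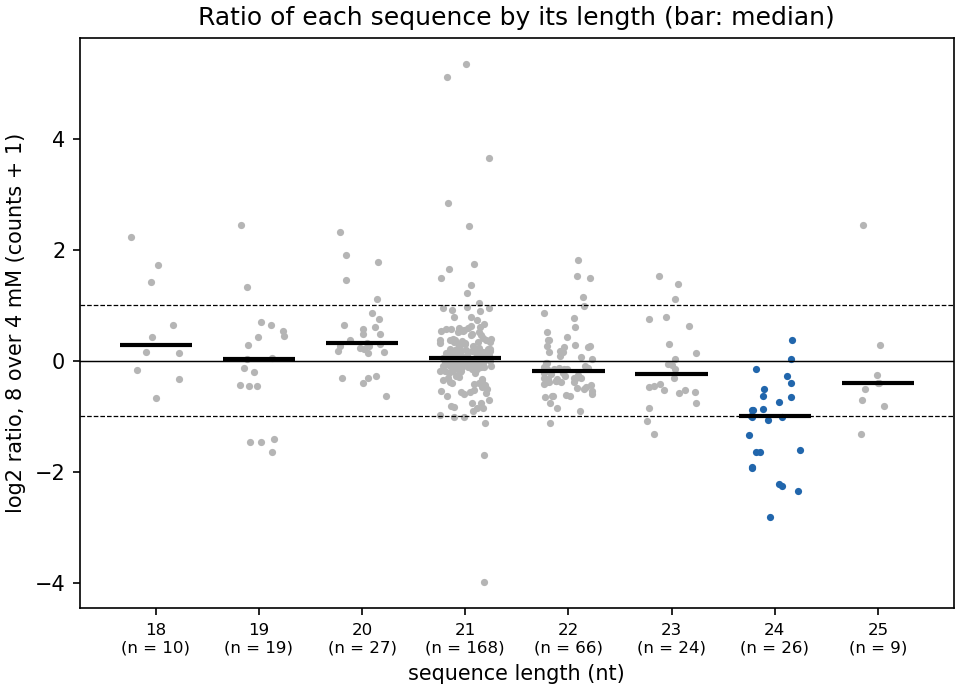
Log2 ratio of 8 to 4 mM of every member by sequence length, with the median of each length. The 24-base column has its median at −0.999, while the medians of the other lengths lie between −0.41 and 0.33.

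The group of families that held most of the reads took a smaller share of them at 8 mM. miR472, miR482 and miR1448, whose targets are resistance receptor messages, together held 74.9% of reads at 4 mM and 67.9% at 8 mM. On the authors' scale miR472 was 1.21-fold lower and miR1448 1.41-fold lower (1.41 to 1.42), and both stayed lower under every scaling. miR482 was 1.16-fold lower, also under every scaling. Of the 20 members of the disease resistance list, 15 were lower on the authors' scale, 1 of them at least 2-fold, and none was at least 2-fold higher, with a median log2 ratio of −0.25. Over all members 8.31% were at least 2-fold higher and 7.45% lower, beside 0% and 5% here. The exception past 2-fold was ptc-MIR472b-p5, the scarce arm of its hairpin, at 92.4 and 45.5.

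Within that group the forms differed. ptc-miR472a stood at 1486719 and 1249876, 1.19-fold lower, and ptc-miR472b, printed above with a seed that differs at its last base, stood at 1140347 and 922747, 1.24-fold lower. ptc-miR482a.1_L+5 was 1.25-fold lower and ptc-miR482d-3p 1.38-fold lower. ptc-miR482c-3p, at 121087 and 137318, was 1.13-fold higher, which depends on the scaling, and ptc-miR482c-5p was 1.29-fold higher (1.18 to 1.42). ptc-miR1448_L+1R+1 stood at 750988 and 528241, 1.42-fold lower, while ptc-MIR1448-p5_1ss20AG from the same hairpin stood at 8125 and 9848, 1.21-fold higher (1.18 to 1.25). The 2 arms of MIR1448 therefore lay on opposite sides of 1 under every scaling.

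miR166 took a larger share at 8 mM. It targets HD-ZIP III transcription factors, which pattern leaves and vascular tissue. It held 11.4% of reads at 4 mM and 16.0% at 8 mM and was 1.26-fold higher on the authors' scale (1.25 to 1.26), also under every scaling. ptc-miR166a alone stood at 536308 and 692480, 1.29-fold higher. ptc-miR166n_L+2R-2, the shifted form printed above, stood at 57833 and 53901, 1.07-fold lower, which depends on the scaling. mtr-miR166a_R-2_1ss19CT, a shorter form, was 1.62-fold higher (1.49 to 1.77). By length, 22-base sequences went from 76.6% to 69.6% of reads and 21-base sequences from 21.9% to 29.0%.

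**Figure D4:**
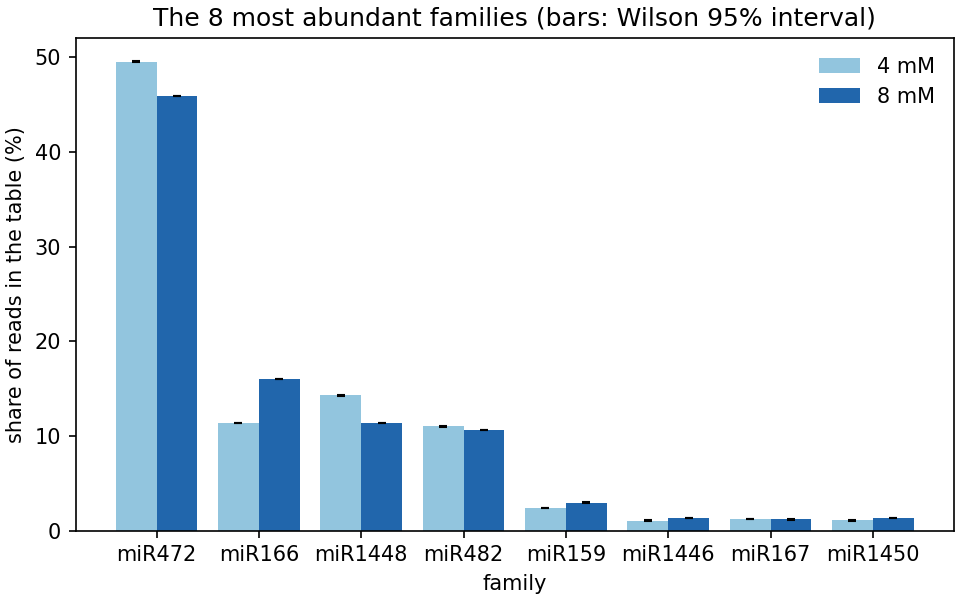
Percent of the assigned reads at 4 and 8 mM, from the 1 library of each dose, for the 8 most abundant families, with Wilson 95% intervals for counting error that are narrow at this depth. miR472, miR1448 and miR482 have the shorter bar at 8 mM, and miR166 goes from 11.4% to 16.0%.

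Of the 51 members of the leaf development list, which includes 17 of miR166, 3 were at least 2-fold higher and 1 lower, with a median log2 ratio of 0.11, which changes side of 0 under a scaling. These shares, 5.88% and 1.96%, stand beside 8.31% and 7.45% over all members. The 3 higher members are ptc-MIR166h-p5_1ss3AG, ptc-MIR319c-p5 and csi-MIR396b-p3_1ss21TA. miR319, which targets TCP factors of leaf shape, was 1.28-fold higher (1.12 to 1.46). Its scarce arm ptc-MIR319c-p5 went from 0 reads to 38, 13.6-fold higher with 3 counts put in place of the 0. The exact interval starts at 10.5. The main form of miR319, ptc-miR319a, stood at 195 and 255. miR394, which targets an F-box message, was 1.21-fold higher (1.17 to 1.25). miR159, which targets MYB factors, was 1.12-fold higher, miR164, which targets NAC factors, 1.08-fold lower, and miR396, which targets growth-regulating factors, 1.04-fold lower, all depending on the scaling. ptc-MIR164c-p3 went from 18 reads to 0, 5.61-fold lower with 3 counts put in place of the 0. Its exact interval starts at 4.11. It passed the filter only because of that difference, which is therefore no result. csi-MIR396b-p3_1ss21TA had 5 and 30 reads, 6.42-fold higher (2.47 to 21.2).

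Phase change microRNAs set the passage from juvenile to adult leaves, miR156 acting on SPL factors and miR172 on AP2-type factors. miR156 was 1.10-fold higher in total, which depends on the scaling, and its 2 main forms differed. ptc-miR156g stood at 36339 and 39271, 1.08-fold higher with the same dependence, whereas ptc-miR156a stood at 3264 and 5116, 1.57-fold higher (1.505 to 1.63). The seeds of the pair, printed above, are shifted by 1 base, and the sequences also differ at inner bases past the seed. miR172 was 1.13-fold lower (1.07 to 1.196), with all members of its seed GAATCTT lower, at log2 ratios of −0.81 to −0.12, although ptc-miR172a, the main form, changes side with equal totals. The list had 0 members at least 2-fold higher and 1 lower of 19, nta-miR156a_R+2, with 13 and 5 reads. That is 0% and 5.26%, beside 8.31% and 7.45% over all members. mtr-miR156e_1ss17AG, with 13 and 6 reads, has a plain ratio 2.02-fold lower and an interval of 0.718 to 6.50.

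Auxin microRNAs were near the middle of the table. Of 33 members 2 were at least 2-fold higher and 0 lower, with a median log2 ratio of 0.01. Over all members the shares were 8.31% and 7.45%, beside 6.06% and 0% here. miR167 acts on messages of auxin response factors and was 1.18-fold lower (1.17 to 1.19). miR160, which targets other response factors, was 1.05-fold lower, and miR393, which targets the auxin receptors TIR1 and AFB, 1.10-fold higher, both depending on the scaling. miR390, which starts the making of TAS3 small RNAs, was 1.15-fold lower with an interval of 0.973 to 1.35. Both members past 2-fold are scarce arms, cme-MIR393a-p5_2ss11TC17TC with 7 and 35 reads and ptc-MIR390a-p3 with 6 and 22. The former passed the filter only because of its difference.

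Phosphate and sulphate microRNAs gave few reads. Of 7 members with a ratio, 1 was at least 2-fold higher and 1 lower, with a median log2 ratio of 0.12. Each is 14.3% of the 7, beside 8.31% higher and 7.45% lower over all members. miR827, which targets SPX-domain messages, stood at 177 and 255, 1.44-fold higher (1.205 to 1.73). miR399, which targets the PHO2 message of a ubiquitin-conjugating enzyme, was 1.08-fold higher, which depends on the scaling. Its arm ptc-MIR399b-p5 went from 0 reads to 45, at least 16.1-fold higher with the exact interval starting at 12.5, while the mature ptc-miR399b stood at 44.1 and 48.1. ptc-MIR399b-p5 passed the filter through the 8 mM library alone, so its difference is fixed by the rule and is no result. ptc-MIR395a-p5, the only miR395 member past the filter, had 11 and 21 reads, a plain ratio 2.04-fold higher with an interval of 0.942 to 4.69, and was not called on the log2(value + 1) scale.

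Of 32 NF-Y and GRAS members, 4 were at least 2-fold higher and 3 lower, shares near those over all members, 8.31% and 7.45%, with a median log2 ratio of −0.10. miR169, which targets NF-YA factors, was 1.18-fold lower (1.15 to 1.21). Its main form ptc-miR169ac_R+2_1ss13AG stood at 8345 and 6100, 1.37-fold lower, while its other arm ptc-MIR169ac-p3 had 14 and 38 reads, 2.90-fold higher (1.54 to 5.80). ptc-miR169n-3p had 8 and 31 reads, 4.15-fold higher (1.86 to 10.4). miR473 was 1.40-fold lower (1.36 to 1.44) and miR171, which targets GRAS factors, 1.10-fold lower, the latter depending on the scaling.

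The remaining lists held single members apart. Of the 3 phenylpropanoid MYB members, ath-miR858a_R+1_1ss2TC had 9 and 32.5 reads and was 3.86-fold higher. miR858, which targets R2R3-MYB factors of flavonoid synthesis, was 1.25-fold higher in total (1.17 to 1.34), while miR828, which targets MYB messages too, was 1.23-fold lower with an interval of 0.805 to 1.89. miR475 and miR476, which target pentatricopeptide repeat messages, were 1.14-fold higher and 1.03-fold lower, the latter depending on the scaling, and none of their 8 members passed 2-fold. Of the 52 members of Populus families 1 was at least 2-fold higher and 9 lower, all 9 of 24 bases. These shares, 1.92% and 17.3%, stand beside 8.31% and 7.45% over all members. The higher one was ptc-miR6471, with 8 and 21 reads, which passed the filter only because of that difference. Among families without a listed role, miR6445 was 1.32-fold lower (1.28 to 1.37), miR6476 1.43-fold lower (1.15 to 1.78) and miR6439 1.39-fold higher (1.26 to 1.53).

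Names that also match transfer or ribosomal RNA pieces gave 3 of 35 members at least 2-fold higher and 4 lower. These shares, 8.57% and 11.4%, are near those over all members, 8.31% and 7.45%. miR6300 was 1.38-fold lower (1.37 to 1.40), at 44511 and 32172. Its forms carry a mixed pattern, gma-miR6300_R+5_1 standing at 14523 and 10136 and gma-miR6300, the 18-base form, at 3195 and 3558, where the side depends on the scaling. Forms gma-miR6300_R+1_2 and gma-miR6300_R+1_3 hold the same values in both libraries, as do gma-miR6300_R+5_1 and gma-miR6300_R+5_2, and mtr-miR167b-5p_R+1_1 and mtr-miR167b-5p_R+1_2, so each pair may be 1 measurement counted under 2 names. miR6478 was 1.49-fold lower (1.36 to 1.63) and miR2916 1.29-fold higher (1.10 to 1.52). The 30 members outside every list had 2 at least 2-fold higher and 0 lower, which is 6.67% and 0%. These 2, bra-MIR824-p5_2ss5GT18TC and htu-miR530_R+3, passed the filter only because of their difference.

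**Figure D5:**
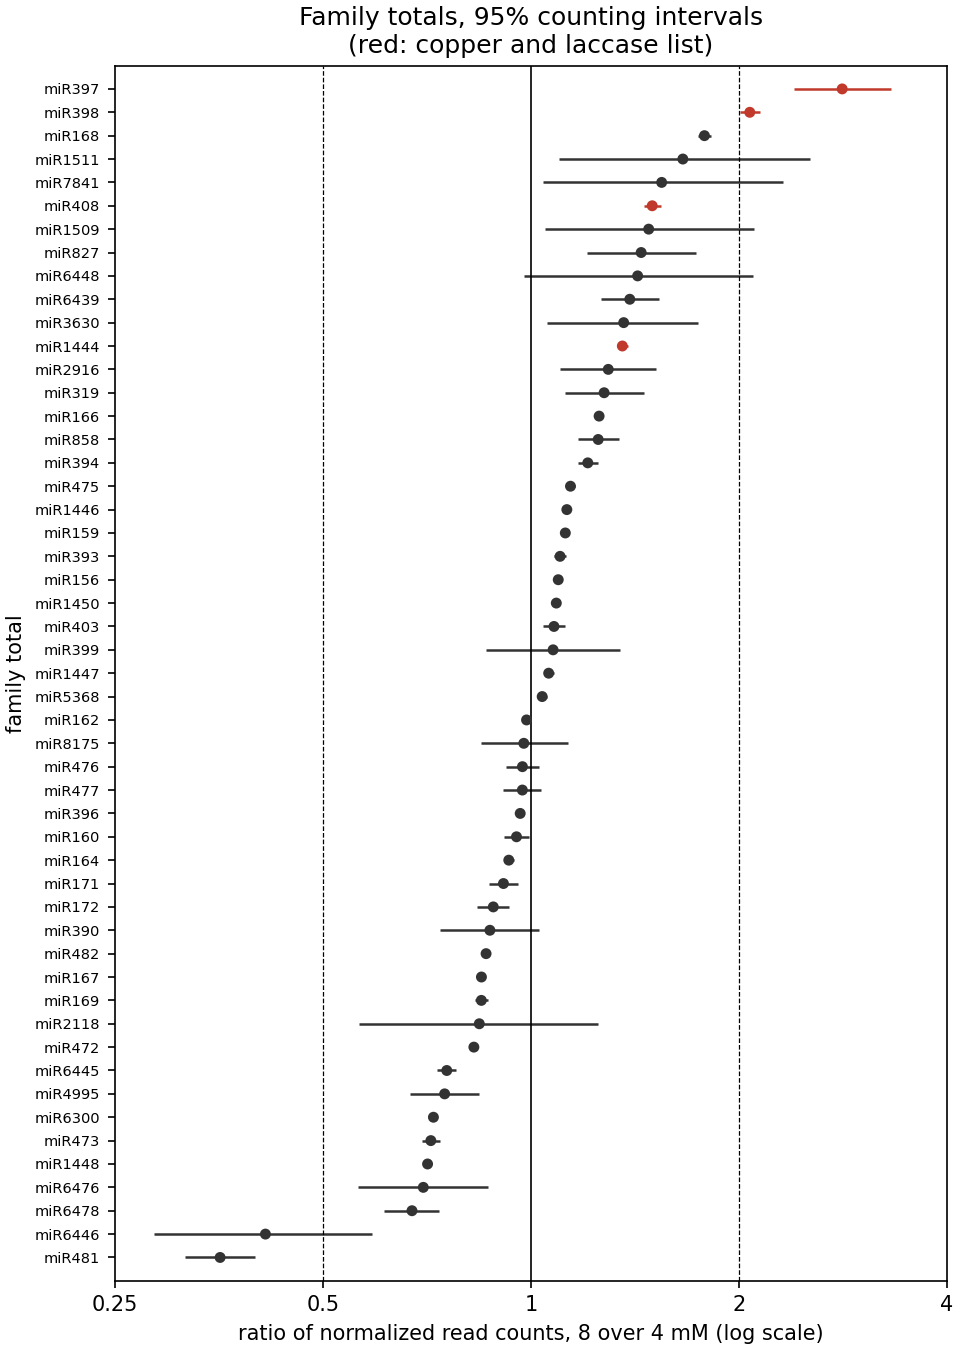
Ratio of 8 to 4 mM of the totals of listed families with at least 100 reads, and of other such families further from 1, with exact 95% counting intervals on a log axis and dashed lines at 2-fold. miR397 and miR398 lie past 2-fold on the higher side, and miR481 and miR6446 on the lower side.

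Over all 68 family totals with at least 100 reads, 61 lay within 1.5-fold. Only miR397 and miR398 were at least 2-fold higher and only miR481 and miR6446 at least 2-fold lower. The interval excluded 1, and the side held under every scaling, for 21 higher and 15 lower totals. For 29 totals the side depended on the scaling.

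Hairpins with a sequence under a miR name and another under a MIR name with p3 or p5, both past the filter, numbered 37. Whether the pair comes from different arms was not checked, since a miR name often gives no arm. The miR form was not always the more abundant: at 4 mM ptc-miR171a-5p stood at 36.6 and ptc-MIR171a-p3 at 1931. In 10 both were higher and in 9 both were lower. In 7 the miR form was higher and the MIR form lower, and in 11 the reverse held, small differences depending on the scaling. They lay within 1 log2 unit of each other in 31. The 6 others were gma-mir167c, gma-mir6300, ptc-mir169ac, ptc-mir390a, ptc-mir397a and ptc-mir399b, and in each the MIR form had the higher ratio. For ptc-mir399b that is no result, because ptc-MIR399b-p5 passed the filter only because of its difference. A further 25 hairpins had both arms named alike, and 3 of them, bra-mir168a, ptc-mir169n and ptc-mir481c, had arms at least 1 log2 unit apart. Arms are taken from the names, and ptc-MIR481b-p3 and ptc-MIR481b-p5_1ss4CT share 17 bases on the same strand. Of 38 seeds shared by at least 2 members, 15 had all members on one side of 0. The miR396 seed TCCACAG had 5 members, all lower on the authors' scale, at log2 ratios of −0.65 to −0.02, of which ptc-miR396a and ptc-miR396c change side with equal totals, while the miR169 seed AGCCAAG spread from −0.52 to 1.52.

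Members at 0 reads in 1 library numbered 8, of which 7 had 0 reads at 4 mM. Besides those given above, ath-miR8175_L-1_1ss2AT had 0 and 5 reads, with an interval starting at 0.981. Since the lowest family total above 0 was 5 reads, low counts may have been dropped before deposit, and folds and bounds drawn from a 0 may then be too high. A count of 0, taken as at most 3 reads, allows up to 2.50 normalized read counts at 4 mM and 2.67 at 8 mM. Just inside the filter lay ptc-MIR399b-p5 with a mean of 10.03, and just outside han-MIR3630-p5_2ss14GA17CA with 9.55. Nearest to the 2-fold line were ptc-miR398b at a log2 ratio of 1.05 and ptc-MIR6462e-p5 at 0.99 on the higher side, and PC-3p-68114_74 at −1.004 and PC-5p-21240_332 at −0.99 on the lower side.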

How the data were processed

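Small RNA of pooled leaf RNA was sequenced, 1 library per dose. Per the submitters' processing notes, bcl2fastq 1.8.4 was used. Which mapper, counter, build and microRNA annotation followed is not given in the sources used here. Per the file headers the authors deposited a raw and a normalized value per library for 738 rows. The raw values are estimated counts as deposited by the authors, often fractions. The normalized values, which the authors deposited beside them, are a linear signal equal to the raw value times 1 factor per library, 0.833 at 4 mM and 0.891 at 8 mM.

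Rows of the same sequence never differed in value and were summed. Families follow the number in the name, and name suffixes such as _R+1 are read as changed ends or bases. Log2 ratios used a pseudocount of 1. Fold intervals are exact conditional binomial intervals on counts rounded to whole reads, and shares have Wilson intervals (Python 3.11.15, SciPy 1.17.1, statsmodels 0.14.6). The procedure was tested on simulated data. The members and lists were chosen with earlier results of these data known. Named are, by rule, the extremes, the members at 0 reads in 1 library, the most abundant, the listed families with their main, highest and lowest members, hairpin arm pairs, family totals past 2-fold and the members nearest to each threshold; others named, such as printed 24-base sequences and members of small lists past 2-fold, were chosen after their values were seen. List families miR857, miR165, miR170, miR474, miR480 and miR1445 have no value here, and miR2111, miR478 and miR1449 have none past the filter. Alternatives changed the scaling, pseudocount, filter and row handling.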

Additional observations from a re-analysis of the deposited data

How the results depend on the processing

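No paired analysis was possible because each dose is 1 library. For the same reason no replicate could be left out. The copper and laccase median stayed between 0.79 and 1.302 and the 24-base median between −1.18 and −0.75 in every alternative run. Scaling moved other values. With equal totals the median over all members was 0.13 and the auxin median 0.18. With totals taken without miR472, miR482 and miR1448 the medians were −0.22 over all members, −0.43 for disease resistance and −0.30 for Populus families. Of 69 family totals 40 moved up beyond their counting interval with the former and 42 down with the latter, as did 45 of 120 named sequences with each. Without a filter 64 sequences were at least 2-fold higher and 77 lower, 26 of them of 24 bases. At a mean of at least 50 these counts were 8, 7 and 4, with 6 copper and laccase members higher.

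The following alternatives were chosen after seeing the data. At 1.5-fold, 56 were higher and 59 lower, 20 of them of 24 bases. Without members under 50 reads, 10 were higher and 16 lower, and 5 copper and laccase members were higher. Without miR481, and likewise without members sharing a run, 8 of 24 bases were lower. The pseudocounts of 0.5 and 5, the median of ratios, 1 row per sequence and a filter on the 4 and 8 mM libraries moved none of these summaries beyond their limits, though 1 row per sequence moved the totals of miR156, miR166, miR169 and miR171 and the median of ratios that of miR472 beyond their counting intervals, with no change of side. Depth limits mostly the 73 members under 50 reads, whose intervals are wide, and with 1 library per dose the counting intervals do not hold the spread between plants.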
